A study of Mus musculus with 3 samples.

Results

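The 9 genes described here encode the costimulatory proteins through which antigen-presenting cells and T cells exchange their second signal. They are the B7 ligands Cd80, Cd86, Icosl and Cd276, the CD28 family receptors Cd28, Ctla4 and Icos, and the receptor-ligand pair Cd40 and Cd40lg. They were chosen by name and were 9 of 50262 genes in the count table. Each matched 1 row. Positions are of the whole gene in GRCm38 (GENCODE M21), and reads were counted on its transcripts. Cd28 (ENSMUSG00000026012, 60716800 to 60773359), Ctla4 (ENSMUSG00000026011, 60887000 to 60915832) and Icos (ENSMUSG00000026009, 60977927 to 61000320) lie near each other on the plus strand of chromosome 1. Cd80 (ENSMUSG00000075122, 38455561 to 38496335, plus strand) and Cd86 (ENSMUSG00000022901, 36603869 to 36666081, minus strand) both lie on chromosome 16. Icosl (ENSMUSG00000000732) lies on chromosome 10 (78069302 to 78083913) and Cd276 (ENSMUSG00000035914) on chromosome 9 (58524298 to 58555437). Cd40 (ENSMUSG00000017652) lies on chromosome 2 (165055627 to 165072948) and Cd40lg (ENSMUSG00000031132) on chromosome X (57212143 to 57224042).

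Cells came from mouse EGFR WT driven glioblastoma at the early, medium and late stage, the brain without its cerebellum being dissociated. Viable cells were sorted into CD45+ (leukocyte) and CD45- fractions before inDrop single-cell RNA sequencing. All groups shared the same model of adult mice of mixed background with conditional overexpression of human EGFR on a Cdkn2a-/- background with a conditional luciferase, beside a further allele not reported here. Tumors were started by intracranial lentivirus carrying Cre with or without TGFa. The promoter that drives the transgene or the virus was not given in the sources used here, and no normal brain was analysed here. Each stage was 1 tumor sample, the early one pooled from more than 1 animal, so 3 tumor samples in 2 sorts made 6 groups of cells spread over 24 libraries and 3 sequencing runs. Stages were therefore never tested against each other. Values by stage carry a 95% Poisson interval that covers counting error only. P-values for sorts and classes rest on the spread between profiles that remains after the difference between tumor samples is taken out. In the class fit all 17 classes share this spread, and some have profiles in only 2 tumor samples. Each tumor sample is also a different stage, so the spread holds any stage effect that differs between groups.

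Costimulation works alongside antigen recognition. CD80 and CD86 on an antigen-presenting cell bind CD28, which lowers the threshold for T cell activation. They also bind CTLA-4, which is induced on activated and regulatory T cells, competes for the same ligands and restrains the response. ICOS is induced on activated T cells and is engaged by ICOSL. CD276 (B7-H3) is a B7 relative found on many tumors whose receptor is not settled. CD40 on antigen-presenting cells is triggered by CD40 ligand on activated helper T cells and in turn raises CD80 and CD86. In the brain, microglia are the resident macrophages, while dendritic cells, monocytes and lymphocytes are scarce until tissue is inflamed or a tumor grows.

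The RefSeq promoter table (GRCm38.p6) held 4 of the 9 members. The 250 bases before the start are printed for 3 of them, a CD28 ligand, an inhibitory receptor and the B7 gene highest in glioma cells, because they differ in base composition. Capitals mark matches to the motifs searched on both strands: AP-1 (TGANTCA, in 6.75% of 32851 promoters of that length), NFAT core (GGAAA, 55.6%), NF-kB (1.41%), PU.1 core (GAGGAA, 23.3%), CRE (TGACGTCA, 1.55%) and GC box (GGGCGG, 32.7%).
Cd80, chr16:38458683-38458932, plus strand: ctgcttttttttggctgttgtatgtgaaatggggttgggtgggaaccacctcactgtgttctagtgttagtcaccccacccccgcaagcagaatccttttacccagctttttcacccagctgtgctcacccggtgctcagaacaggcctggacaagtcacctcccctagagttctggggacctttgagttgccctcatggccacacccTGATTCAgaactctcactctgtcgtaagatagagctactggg
Ctla4, chr1:60908775-60909024, plus strand: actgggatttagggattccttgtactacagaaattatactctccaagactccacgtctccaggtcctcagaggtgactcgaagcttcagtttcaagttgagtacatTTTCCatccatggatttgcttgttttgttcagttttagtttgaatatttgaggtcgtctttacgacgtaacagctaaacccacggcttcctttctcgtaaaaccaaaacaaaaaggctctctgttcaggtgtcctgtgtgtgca
Cd276, chr9:58555034-58555283, minus strand: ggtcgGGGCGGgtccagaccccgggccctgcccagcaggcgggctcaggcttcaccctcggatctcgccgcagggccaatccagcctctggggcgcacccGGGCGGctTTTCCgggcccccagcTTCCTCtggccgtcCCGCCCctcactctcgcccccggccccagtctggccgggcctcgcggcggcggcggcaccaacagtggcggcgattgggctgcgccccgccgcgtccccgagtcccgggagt
The Cd80 window was 52.8% G or C and held 1 AP-1 match, 42 bases before the start. The Ctla4 window was 42.4% G or C and held 1 NFAT core on the minus strand, 144 bases before the start. The Cd276 window was 77.6% G or C, with 3 GC boxes 245, 150 and 112 bases before the start and with NFAT core and PU.1 core matches at 142 and 126 bases. The Icosl window, not printed, was 68.8% G or C with 1 GC box. The RefSeq starts of Cd80, Ctla4 and Cd276 lie inside the GENCODE spans given above. A match describes the letters only, and these data hold no measurement of binding.

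Of 20811 deposited cells, 17781 were used, at a median of 2143 unique molecular identifiers (UMIs, each a counted transcript) a cell. The 6 groups held 1603 to 5091 cells and 5381839 to 10808099 UMIs each. Levels are UMIs of a gene as counts-per-million of all UMIs of the group (CPM), with no correction for gene length, so levels are compared between groups for 1 gene. Cells were clustered without the 9 genes and without the other genes of their pathway, and clusters were named from marker lists (T cell-like and so on). Glioma cells were mostly CD45- clusters in which at least 50% of cells held a human EGFR UMI. Ptprc, which encodes CD45, was at 227 to 250 CPM in CD45+ and at 3.59 to 15.9 CPM in CD45- groups. Human EGFR went from 7.28 (early) over 706 (medium) to 1220 CPM (late) in CD45- and was at 1.85, 271 and 84.7 CPM in CD45+ groups. Transgene RNA was thus present in the medium and late CD45+ sorts. The 36 pairs of libraries of the same stage and sort shared 1335 cell barcodes and the 240 other pairs 970. In all, 2136 cells (11.9%) held a barcode found in another library of the same stage and sort. Barcodes shared only across stages or sorts were outside this count, and their cells stayed in. Each member call below that was followed under the alternatives was also computed without the 2136 cells, and only 1 was lost. It was that of Cd86 in macrophage or monocyte-like over T cell-like cells (log2 1.21).

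The first comparison asked how the 9 genes were divided between the CD45+ and CD45- sorts, which were not pure in class. Of 1351 Cd86 UMIs in microglia-like cells of both sorts, 1256 lay in CD45+, while the CD45- sort held 114 in all. Of 671 Cd276 UMIs in glioma cells of both sorts, 612 lay in CD45-, while the CD45+ sort held 221 in all. In what follows 3 values are always early, medium and late. Cd86 was at 99.0, 80.8 and 74.9 CPM in CD45+ and at 9.51, 3.66 and 1.23 CPM in CD45- groups. Icosl was at 31.4, 17.6 and 24 CPM in CD45+ and at 2.72, 4.57 and 1.42 CPM in CD45-. Cd80 was at 13, 13 and 6.87 CPM against 3.58, 2.29 and 2.46 CPM. For these 3 ligands every CD45+ group lay above every CD45- group, and the share of all genes that do so is not given here. The receptors had few UMIs outside CD45+ cells. Cd28 was at 17.3, 26.3 and 17.1 CPM, Ctla4 at 4.44, 13 and 9.85 CPM and Icos at 19.2, 21.8 and 32.7 CPM. In all CD45- cells together they had 2, 0 and 5 UMIs. Cd40 was at 4.35, 15.4 and 6.87 CPM in CD45+ and at 2.35, 1.52 and 2.17 CPM in CD45-. Cd276 ran the other way in the later tumors, with 4.69, 24.5 and 47.1 CPM in CD45- and 9.62, 5.14 and 12.4 CPM in CD45+. The early tumor sample was thus higher in CD45+ and the other two were higher in CD45-.

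In edgeR's quasi-likelihood test with the tumor sample as a block, 7 of the 8 members tested were higher in CD45+ and none lower, where 20.4% of the 18433 genes tested were higher and 25.7% lower. The log2 fold change was 4.80 for Cd86 (SE 0.49, adjusted p = 0.000414), 3.5 for Icosl (SE 0.42, adjusted p = 0.000679) and 2.30 for Cd80 (SE 0.34, adjusted p = 0.00139). It was 7.20 for Icos (SE 0.78, adjusted p = 0.000505) and 2.29 for Cd40 (SE 0.52, adjusted p = 0.0101). Cd28, with 535 UMIs against 2, was 261-fold higher as a ratio of sums (95% counting interval 71.8 to 2157, adjusted p = 0.000131). Ctla4, with 227 UMIs against 0, was at least 73.7-fold higher against a floor of 3 counts over the CD45- group (adjusted p = 0.000486). Cd276 was at -0.78 (SE 0.62, adjusted p = 0.345) and was not called. Without the early tumor sample, the only one in which it was higher in CD45+, the value was -1.63 with an adjusted p of 0.00338. That direction was fixed by which sample was left out, so it is no further support for a difference. Cd40lg, at 17 UMIs against 0 or at least 5.52-fold, was below the filter on low counts and was not tested. Within sequencing runs 1, 2 and 3 the ratio of sums was 34.4, 17.4 and 13.4 for Cd86 and 5.45, 3.84 and 4.22 for Cd80. It was 6.76, 8.0 and 9.55 for Icosl and 5.53, 6.32 and 2.66 for Cd40. It was 0.183, 0.362 and 0.418 for Cd276. Here and below, runs split the same tumor samples, and their mix of stages differs between sorts. They are therefore no replicates, and the run ratios of Cd276 are no further support for a difference.

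**Figure D1:**
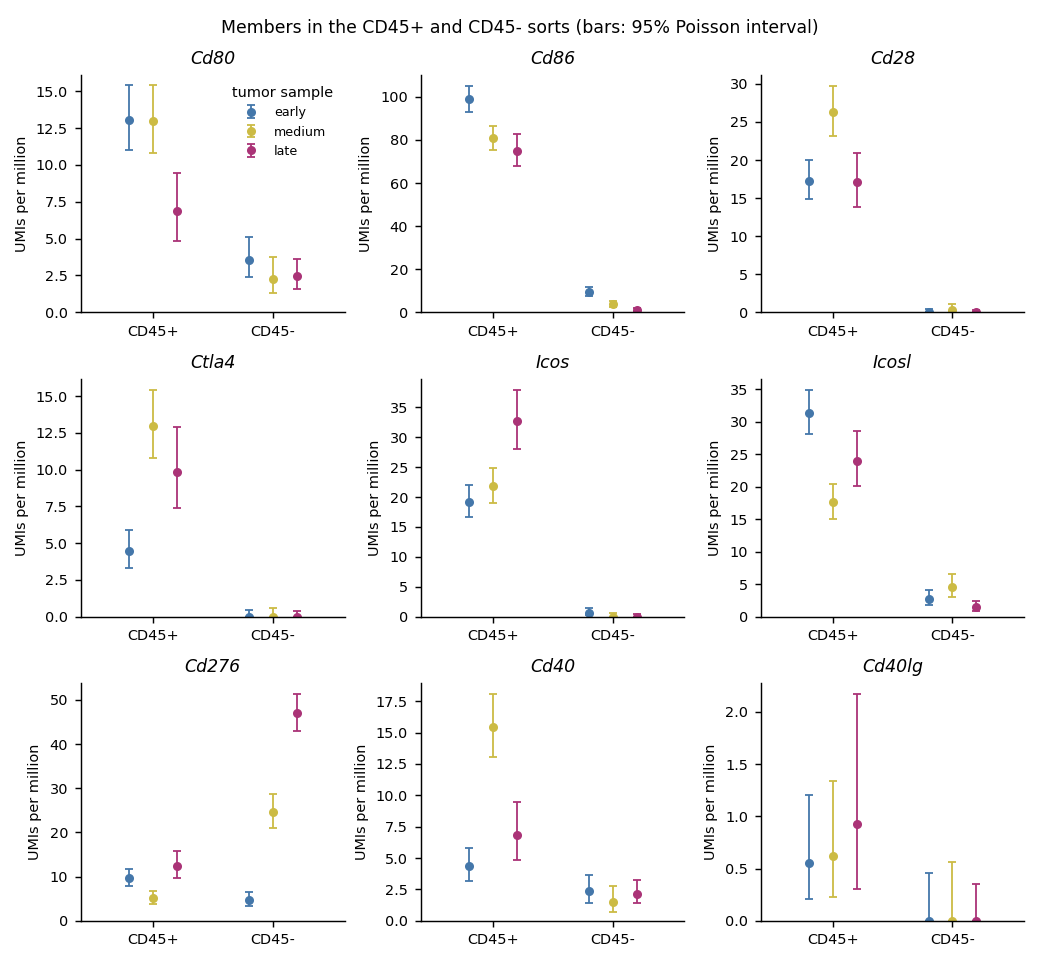
Level in CPM of each of the 9 genes (one panel each, linear axis from 0) in the CD45+ and CD45- sorts of the early, medium and late tumor samples; points are groups of cells and bars are 95% Poisson intervals. Cd86 is at 74.9 to 99.0 in CD45+ and at most 9.51 in CD45-, and the late CD45- point of Cd276 is at 47.1.

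Among the named classes, Cd86 had its 4 highest means in dendritic cell-like, microglia-like, border macrophage-like and macrophage or monocyte-like cells. It was at 109, 110 and 99.2 CPM in microglia-like cells and at 118, 120 and 106 CPM in dendritic cell-like cells. It was at 92.3, 83.9 and 88.1 CPM in border macrophage-like cells and at 42.7, 78.9 and 71.8 CPM in macrophage or monocyte-like cells. An unnamed cluster of 1307 CD45+ cells was led by AC166110.3, the interferon-induced chemokine gene Cxcl9 and Dcstamp, and only 2 macrophage markers passed the naming rule in it. It was kept as a group of its own after its size was seen and held Cd86 at 134 and 141 CPM in the early and medium samples. Neighbours in the order of means were tested among classes with at least 10 UMIs of the gene and profiles in at least 2 tumor samples, here and for the other members. None of the 4 neighbouring pairs of these 5 groups passed. Dendritic cell-like cells (115 CPM, SD 7.48, n = 3) over microglia-like cells (106 CPM, SD 6.17, n = 3) gave a log2 difference of -0.11 in the fit (SE 0.41, adjusted p = 0.89). Neutrophil-like cells were lower, at 33.9 and 6.77 CPM in the early and medium samples from 3 and 7 UMIs. T cell-like cells were at 29.7, 44.4 and 8.54 CPM and glioma cells at 0, 0 and 0.606 CPM. The microglia-like values rest on 3985, 768 and 998 CD45+ cells. Over both sorts, the 6093 microglia-like cells held 56.9% of all 2373 Cd86 UMIs and the 1333 cells of the Cxcl9-led cluster 17.5%.

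Cd80, the other ligand of CD28 and CTLA-4, had 304 UMIs in CD45+ cells. Its highest class mean over 3 tumor samples was in dendritic cell-like cells, which held 8.82% of all 374 Cd80 UMIs of both sorts, against 39.0% in the more numerous microglia-like cells. Dendritic cell-like cells held 59.2 and 51.3 CPM in the early and medium samples from 12 and 21 UMIs, and 0 UMIs in the 48 late cells (upper 95% limit 30.1 CPM). Microglia-like cells were at 12.2, 14.9 and 9.29 CPM, macrophage or monocyte-like cells at 14.2, 19.4 and 7.18 CPM and border macrophage-like cells at 11.3, 17.5 and 0 CPM. T cell-like cells were at 3.95, 10.5 and 0 CPM and glioma cells at 0, 1.73 and 1.36 CPM. The Cxcl9-led cluster was at 34.7 and 8.23 CPM in the early and medium samples. Fibroblast-like cells of the CD45- sort, at 21.5, 10.1 and 25.6 CPM from 16 UMIs, and neutrophil-like cells, at a mean of 17.6 CPM, were also above the macrophage classes in mean. None of the 4 neighbouring pairs at the top of the order of class means (36.8 CPM in dendritic cell-like cells to 13.6 CPM in macrophage or monocyte-like cells) passed the test. The 86 medium B cell-like cells, present in only 1 tumor sample and so in no fit, held 48.5 CPM (95% Poisson interval 25.1 to 84.8).

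Icosl, the ligand of ICOS, had its highest levels in microglia-like cells and the Cxcl9-led cluster. Microglia-like cells of both sorts held 64.0% of its 706 UMIs. Those of the CD45+ sort were at 35.1, 30.4 and 43.5 CPM, and the Cxcl9-led cluster was at 54.5 and 29.5 CPM. Dendritic cell-like cells were at 9.87, 17.1 and 16.3 CPM, macrophage or monocyte-like cells at 14.2, 11.1 and 14.9 CPM and border macrophage-like cells at 20.7, 3.5 and 0 CPM. T cell-like cells were at 5.93, 5.85 and 4.27 CPM and glioma cells at 0, 1.30 and 0.757 CPM. Each microglia-like value lay above each value of the dendritic, macrophage and T cell-like classes, and the share of all genes that do so is not given here. The neighbouring pairs of the order, microglia-like over neutrophil-like (log2 1.38, SE 0.80, adjusted p = 0.263) included, did not pass the test. Dendritic cell-like over microglia-like cells did not pass either (log2 -1.48, SE 0.70, adjusted p = 0.142). As a ratio of summed UMIs, dendritic cell-like cells held 0.416 times the Icosl level of microglia-like cells (95% counting interval 0.206 to 0.752), against 3.74 times for Cd80 (2.48 to 5.50) and 1.09 times for Cd86 (0.864 to 1.35).

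**Figure D2:**
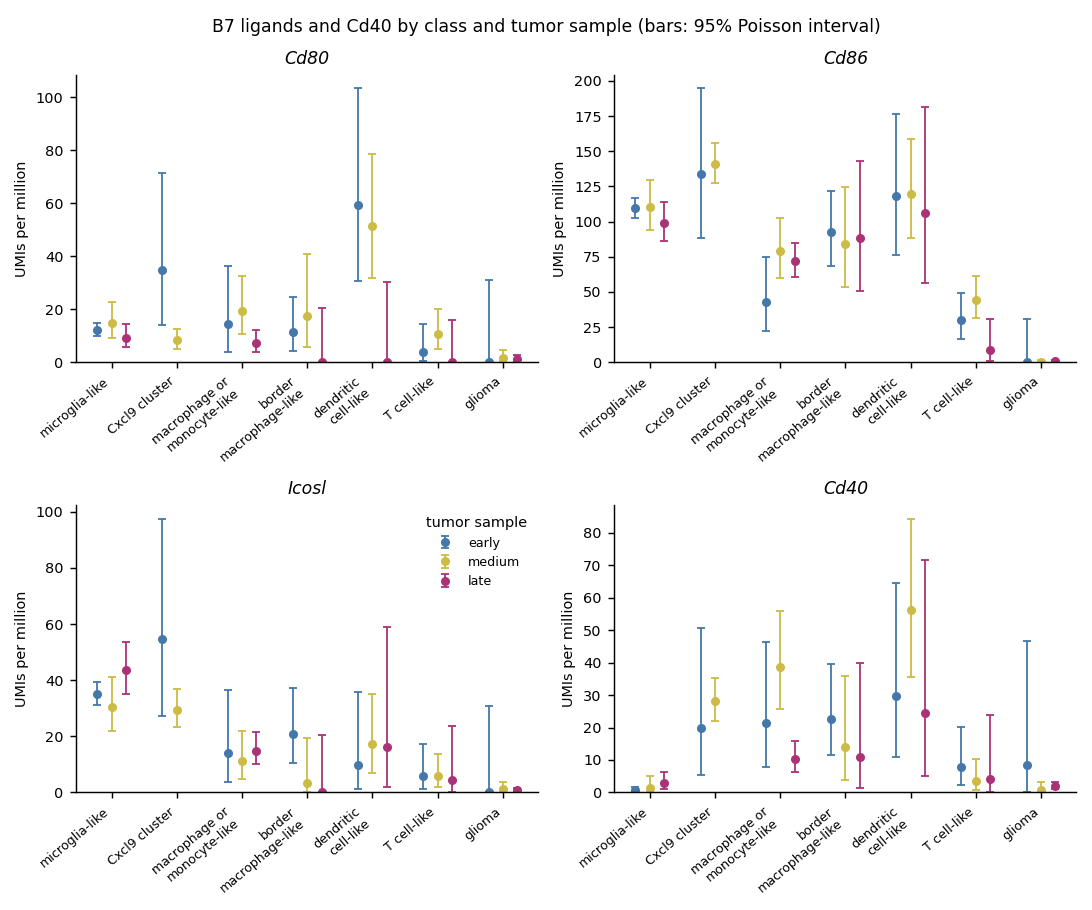
Level in CPM of Cd80, Cd86, Icosl and Cd40 (one panel each, linear axis from 0) by class and tumor sample; points are summed cells of 1 class in 1 tumor sample and bars are 95% Poisson intervals. Cd86 is between 42.7 and 141 in every point of the microglia-like, macrophage or monocyte-like, border macrophage-like and dendritic cell-like classes and of the Cxcl9 cluster, Icosl is highest in microglia-like cells and the Cxcl9 cluster, and Cd40 stays at or below 2.93 in microglia-like cells.

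The second comparison set the mean of the antigen-presenting classes (microglia-like, macrophage or monocyte-like, border macrophage-like and dendritic cell-like) against T cell-like cells, in 1 fit of 48 summed profiles over 17 classes and 12803 genes. Of 8 members tested, only Cd86 was higher in the antigen-presenting classes, where 8.46% of genes were. Cd28, Ctla4 and Icos were lower, where 10.6% of genes were. Cd86 was higher by 1.69 on the log2 scale (SE 0.39, adjusted p = 0.000816). Within runs 1, 2 and 3 its ratio of sums was 3.03, 2.50 and 3.72. The other ligands and Cd40 missed the threshold, at log2 1.64 for Icosl (SE 0.68, adjusted p = 0.0848) and 1.48 for Cd80 (SE 0.69, adjusted p = 0.132). The value was 1.36 for Cd40 (SE 0.73, adjusted p = 0.214) and -0.08 for Cd276 (SE 0.82, adjusted p = 1). Cd276 had no stable direction, at 4.63 without the early tumor sample and 4.53 without cells holding markers of another class, neither called, and at a ratio of sums of 3.17 (95% counting interval 1.21 to 11.8) from 4 T cell-like UMIs. Icosl passed in 3 alternatives. These were leaving out the cells with the highest doublet scores (log2 2.15, adjusted p = 0.0343), giving each cell its class from its own markers (log2 2.27, adjusted p = 0.00499), and leaving out T cell-like cells with at least 2 UMIs of microglia or macrophage markers and cells of the other leukocyte classes with at least 2 UMIs of T cell markers (log2 3.53, adjusted p = 0.0272). The T cell-like profiles held the 7 microglia markers at a summed 577 to 1339 CPM, against 11289 to 12969 CPM in microglia-like cells, and the 9 macrophage or monocyte markers at 1174 to 1985 CPM, against 6230 to 12278 CPM in macrophage or monocyte-like cells.

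Class by class, Cd86 was higher than in T cell-like cells in all 4 classes, at log2 1.99 in microglia-like cells (SE 0.43, adjusted p = 0.000283) and 1.88 in dendritic cell-like cells (SE 0.47, adjusted p = 0.00603). It was 1.56 in border macrophage-like cells (SE 0.46, adjusted p = 0.0139) and 1.32 in macrophage or monocyte-like cells (SE 0.45, adjusted p = 0.0376). Of the pairs among the 4 classes, 4 were tested. Dendritic cell-like over microglia-like cells, with 19% of genes called, had Cd40 higher, as given with that gene, but called neither Cd80 (log2 1.48, SE 0.67, adjusted p = 0.119, passing at a minimum of 50 cells with log2 2.12) nor Icosl. It also called Cd28 (log2 3.44, SE 1.15, adjusted p = 0.0294) and Ctla4 (log2 3.39, SE 1.23, adjusted p = 0.0467) higher, from 6 and 4 UMIs in dendritic cell-like and 7 and 3 in microglia-like cells. These calls were lost in 7 and 9 alternatives, DESeq2 (adjusted p = 0.53 and 0.732) and leaving out the early tumor sample (log2 2.87 and 2.45), the medium one (log2 3.61 and 4.52), run 1 (log2 2.08 and 1.64) or cells holding markers of another class (log2 2.31 and 3.35) among them, and that of Ctla4 also without the late tumor sample (log2 3.32) or run 3 (log2 3.26). Microglia-like over border macrophage-like cells, with 9.31% called, had Cd40 lower and Cd28 lower (log2 -3.58, SE 0.98, adjusted p = 0.0131), where all 10 border macrophage-like UMIs were early. Without the early tumor sample it was at 2.58 and not called, and it was also lost without run 3 (log2 -2.84), at resolution 2 (log2 -2.49) and under DESeq2 (adjusted p = 0.63). The summed T cell list was at 17.9 to 24 CPM in microglia-like, 82.6 to 113 CPM in border macrophage-like and 16.3 to 197 CPM in dendritic cell-like profiles, and its part was not tested. Dendritic cell-like over macrophage or monocyte-like cells and border macrophage-like over macrophage or monocyte-like cells called no member. Of 12803 genes, 714 and 218 were called there. Against T cell-like cells, Icosl was higher in microglia-like cells (log2 2.84, SE 0.71, adjusted p = 0.0016), with 27.4% of genes called in either direction in that contrast. Cd80 (log2 2.66, SE 0.80, adjusted p = 0.0293) and Cd40 (log2 2.89, SE 0.83, adjusted p = 0.0214) were higher in dendritic cell-like cells, where 6.38% of genes were called. Cd40 was higher in macrophage or monocyte-like cells (log2 2.27, SE 0.81, adjusted p = 0.0497), where 14% were called, and border macrophage-like cells had no further member (15.3% called). The Cxcl9-led cluster had Cd86, Icosl and Cd40 higher than T cell-like cells, at log2 2.35, 3.01 and 2.49 (SE 0.47, 0.79 and 0.86), where 11.1% of genes were called. The calls of Cd40 in macrophage or monocyte-like cells and in the Cxcl9-led cluster lay close to the threshold and were lost in 11 and 8 alternatives, and those of Cd86 in macrophage or monocyte-like and border macrophage-like cells were lost in 10 and 5. The dendritic cell-like calls of Cd86 and Cd40 were lost without the early or the late tumor sample or without run 3, at log2 1.67 to 1.87 and 3.04 to 3.53. That of Cd80 was lost without run 1 or 3, at 2.52 and 2.88. Where each cell took its class from its own markers, Cd80 and Cd40 were at 1.07 and 1.07 there and were not called.

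The third comparison set the same antigen-presenting classes, from the CD45+ sort, against glioma cells, from the CD45- sort, so that sort and class cannot be told apart. Of 8 members tested, 6 were higher, where 18.1% of 12803 genes were higher. Cd276 was lower, where 28% were lower. Cd86 was higher by 7.6 on the log2 scale (SE 0.62, adjusted p = 2.6e-15), Icosl by 4.37 (SE 0.75, adjusted p = 2e-06), Cd80 by 3.52 (SE 0.73, adjusted p = 4.63e-05) and Cd40 by 2.99 (SE 0.73, adjusted p = 0.000502). Microglia-like over glioma cells alone did not call Cd40 (5247 genes called). As a ratio of sums, glioma cells held 1.47 times the microglia-like level of Cd40 (95% counting interval 0.674 to 3.26), from 16 and 14 UMIs. Macrophage or monocyte-like, border macrophage-like and dendritic cell-like cells each called it higher, where 4871, 4201 and 4286 genes were called. Within runs 1, 2 and 3 the Cd40 ratio of the classes together was 4.95, 9.20 and 1.36. Of 1439 glioma cells, 0.0695% held a Cd86 UMI against 15.3% of microglia-like cells, although glioma cells were deeper, at a median of 5231 UMIs against 1894. Cd28 and Icos were also called higher, but from 27 and 60 UMIs in the antigen-presenting classes against 2 and 0 in glioma cells. This is a ratio of 7.46 (95% counting interval 1.88 to 64.8) and at least 11.1-fold. The Cd28 call was lost under 6 alternatives, among them leaving out the early or the late tumor sample (log2 1.61 and 1.15). It was also lost without the cells of highest doublet score (log2 2.50) and where each cell took its class from its own markers (log2 2.11). The Icos call was lost without the late tumor sample. Markers of T cells were present beside them, at the summed levels given above, against 3388 to 4992 CPM in T cell-like profiles. Both calls held when cells of these classes with at least 2 UMIs of T cell markers were left out, a cut that keeps cells with fewer. The part of T cell RNA in these values was not tested.

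Without scaling factors beyond library totals, the split of all genes called moved from 3759 higher and 4744 lower to 2589 and 6559 in the sort comparison. It moved from 2316 and 3586 to 1655 and 5403 for antigen-presenting classes over glioma cells, and from 2068 and 2589 to 1706 and 3478 for T cell-like over glioma cells. The median of all genes moved from -0.04 to -0.40, from -0.23 to -0.65 and from -0.20 to -0.51 on the log2 scale. The member counts in these comparisons were 7, 7 and 6 under both scalings.

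Among the classes with a profile of at least 20 cells, Cd276 was the one member with its highest mean level in glioma cells. The 17 mast cell or basophil-like cells, too few for a profile, held 9 Cd276 UMIs at a median depth of 2649 UMIs a cell. It was at 33.5, 58.4 and 71.6 CPM in early, medium and late glioma cells, from 4, 135 and 473 UMIs in 37, 365 and 1037 cells. Over both sorts, all 1688 glioma cells held 671 (73.0%) of its 919 UMIs. Human EGFR was at 469, 1942 and 1932 CPM in the same cells. Oligodendrocyte progenitor-like cells had the next highest mean of these classes, at 47.4, 46.8 and 37.9 CPM, with human EGFR at 0, 0 and 384 CPM. Glioma over progenitor-like cells did not pass the test (log2 0.44, SE 0.61, adjusted p = 0.692). Neuron or neuroblast-like cells followed at 7.06, 14.3 and 12.2 CPM, below the progenitors by the test (log2 1.99, SE 0.69, adjusted p = 0.0323, 19.5% of genes called in either direction). The call was lost on leaving out each of the 3 tumor samples in turn, at log2 1.67 to 2.16. Mature oligodendrocyte-like cells, at 0.273, 0.454 and 0.998 CPM, were lower, from 4 UMIs in all. Microglia-like cells held 11.6, 2.83 and 11.7 CPM, a mean of 8.72 CPM (SD 5.10, n = 3). Cd276 was lower in the antigen-presenting classes than in glioma cells by 4.02 on the log2 scale (SE 0.55, adjusted p = 7.34e-09). The ratio of sums was 0.114, 0.104 and 0.139 within runs 1, 2 and 3. T cell-like cells, with 4 UMIs, were lower by 3.94 (SE 0.83, adjusted p = 0.000106). A UMI was found in 24.9% of glioma cells against 0.146% of oligodendrocyte-like cells, and in 5.59% of glioma cells when each cell was thinned to 1000 UMIs.

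In the whole CD45- sort Cd276 went from 4.69 to 47.1 CPM over the stages, while the number of glioma cells went from 37 to 1037 and human EGFR from 7.28 to 1220 CPM. Within glioma cells the late over early ratio was 2.14 (95% counting interval 0.829 to 7.87) and rested on the 4 early UMIs, so a change per cell was not detectable at this depth.

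**Figure D3:**
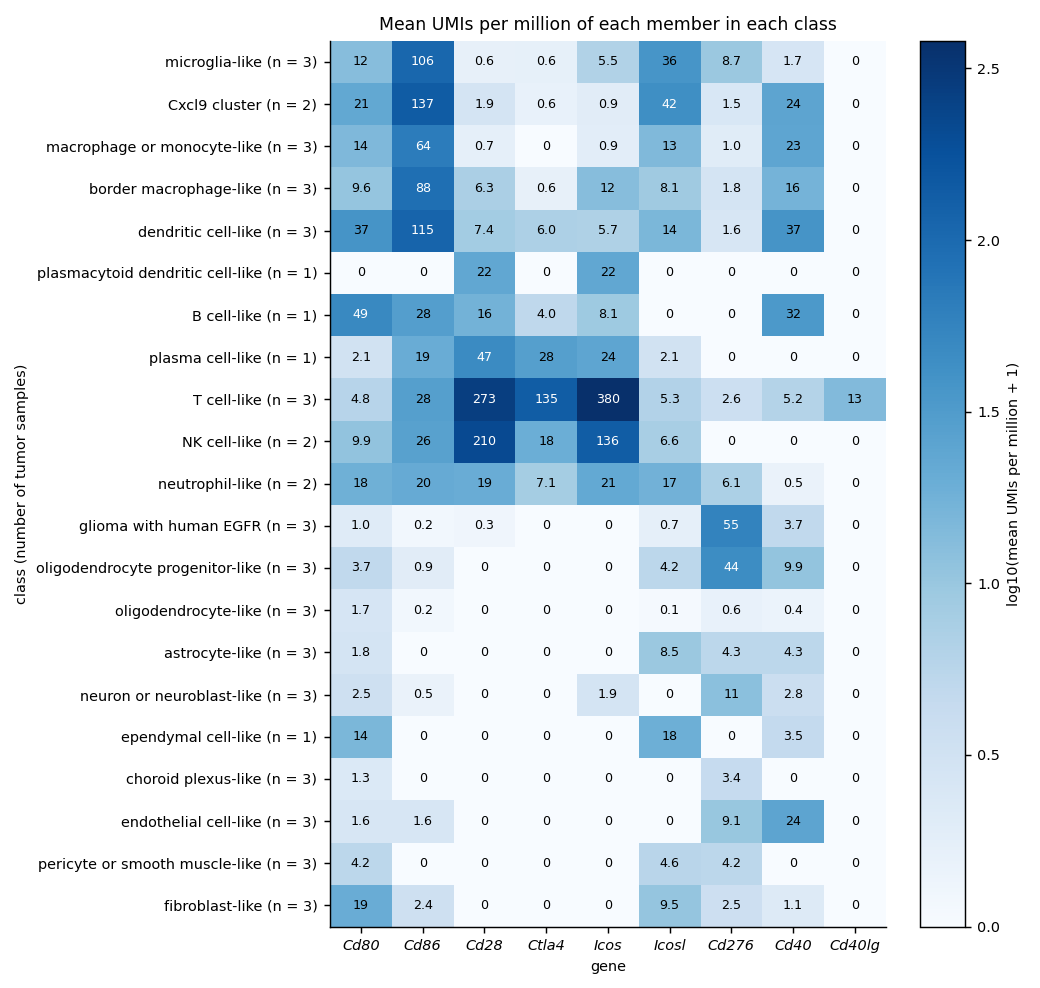
Heat map of the mean CPM of each of the 9 genes (columns) in each class (rows, with the number of tumor samples behind the mean); the color is log10 of the mean plus 1 and the mean is printed in each cell. Cd86 is highest in the rows of microglia-like, macrophage or monocyte-like, border macrophage-like and dendritic cell-like cells and of the Cxcl9 cluster (64.4 to 137, against at most 28.3 in any other row), Cd28, Ctla4 and Icos the T cell-like row (273, 135 and 380) and Cd276 the glioma and oligodendrocyte progenitor-like rows (54.5 and 44.1).

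The receptors were concentrated in T cell-like cells, 244, 369 and 104 of which were found at the early, medium and late stage. Cd28 was at 277, 206 and 337 CPM, Icos at 316, 174 and 649 CPM and Ctla4 at 81.1, 115 and 209 CPM. These cells held 73.6%, 76.8% and 82.8% of the UMIs of the 3 genes. NK cell-like cells of the early and medium samples came next, with Cd28 at 126 and 294 CPM and Icos at 92.7 and 180 CPM. Ctla4 was at 19.9 and 16.3 CPM there from 3 and 1 UMIs. Those profiles also held the T cell list at a summed 1600 to 2071 CPM, under the 3388 to 4992 CPM of T cell-like cells, and its part in these values was not tested. T cell-like over NK cell-like cells did not pass the test for Cd28 (log2 0.89, SE 0.64, adjusted p = 0.677) or Icos (log2 1.54, SE 0.67, adjusted p = 0.441). Among classes with at least 10 Cd28 UMIs, border macrophage-like cells came next, below neutrophil-like (19.4 CPM from 8 UMIs) and dendritic cell-like cells (7.38 CPM from 6 UMIs). Dendritic cell-like cells were not compared with NK cell-like cells. NK cell-like over neutrophil-like cells called Cd28 higher, with 923 of 12803 genes called in either direction, and this call was not followed under the alternatives. NK cell-like over border macrophage-like cells passed (log2 3.98, SE 0.79, adjusted p = 0.00103, 4.63% of genes called), though not under DESeq2.

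In the antigen-presenting classes, with T cell-like cells as the reference, Cd28 was at -6.40 on the log2 scale (SE 0.43, adjusted p = 3.72e-15) and Icos at -6.10 (SE 0.41, adjusted p = 1.66e-14). Ctla4 had 8 UMIs in the 4 antigen-presenting classes against 188 in T cell-like cells, a ratio of 0.00415 (95% counting interval 0.00177 to 0.00835, adjusted p = 7.58e-13). Within runs 1, 2 and 3 the antigen-presenting classes held 0.0151, 0.00255 and 0.00819 times the Cd28 level of T cell-like cells and 0.0128, 0.0164 and 0.00945 times the Icos level. Under DESeq2 the Cd28 and Ctla4 differences had the same sign but adjusted p of 0.0511 and 0.196. Against glioma cells, where 16.2% of genes were higher in T cell-like cells and 20.2% lower, 5 of 8 members were higher and Cd276 lower. Cd28 was 1119-fold higher as a ratio of sums (95% counting interval 308 to 9271), Ctla4 at least 355-fold and Icos at least 871-fold, since glioma cells held no UMI of either. Under DESeq2 the Ctla4 call was lost (adjusted p = 0.111). Cd86 was also higher, by 5.90 (SE 0.69, adjusted p = 6.16e-10). Icosl was higher by 2.73 (SE 0.96, adjusted p = 0.0198), from 9 UMIs. That call was lost in 4 alternatives, at 3.07 without the medium and 2.42 without the late tumor sample, 1.86 without the cells of highest doublet score and 0.90 without cells holding markers of another class. Cd80 (log2 2.05, SE 0.91, adjusted p = 0.071) and Cd40 (log2 1.63, SE 0.95, adjusted p = 0.184) did not pass. Cd80 passed without the block (log2 2.30), at resolution 2 (log2 2.38) and where each cell took its class from its own markers (log2 2.68).

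T cell-like cells were divided by which lineage genes had a UMI in the cell, a division that misses cells in which the gene was not sampled. The 159 cells with Cd4 held Cd28 at 401 CPM (95% Poisson interval 340 to 470), Icos at 512 CPM (443 to 589) and Ctla4 at 240 CPM (193 to 295). The 101 cells with Foxp3 or Il2ra, genes of regulatory and activated T cells, were at 260 CPM (205 to 325), 472 CPM (396 to 557) and 236 CPM (184 to 299) for the same 3 genes. The 261 cells with Cd8a or Cd8b1 were at 147 CPM (118 to 181), 208 CPM (173 to 248) and 55.7 CPM (38.4 to 78.3), and a cell could belong to more than 1 of these groups. The groups differed in stage, with 35 late cells in the Cd4 group and 28 in the Foxp3 or Il2ra group, while 113 early and 134 medium cells made up most of the Cd8 group. In the Foxp3 or Il2ra group Icos was at 287 CPM in medium and 943 CPM in late cells, and Cd28 at 191 and 372 CPM. Late Il2ra UMIs were 53 in the cluster led by Il13 described below and 18 in the other T cell-like clusters. Medium Il2ra UMIs were 1 and 73 there. Foxp3 had 2 and 2 late UMIs in them, and 0 and 40 medium UMIs. Whether cells of 1 kind changed between the stages was not tested. Pooled over stages, the intervals of the Cd8 and Cd4 groups did not overlap for Cd28, Icos or Ctla4. The share of all genes whose intervals separate in this way is not given here. Among medium cells the intervals of the Cd8 and Cd4 groups overlapped for Icos, at 134 CPM (96.7 to 181) and 231 CPM (169 to 310). The medium Cd8 group also overlapped the medium Foxp3 or Il2ra group for Cd28, at 160 CPM (119 to 211) against 191 CPM (129 to 273). For Ctla4 the pooled Cd4 and Foxp3 or Il2ra groups had overlapping intervals. No test over tumor samples was made of these groups.

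**Figure D4:**
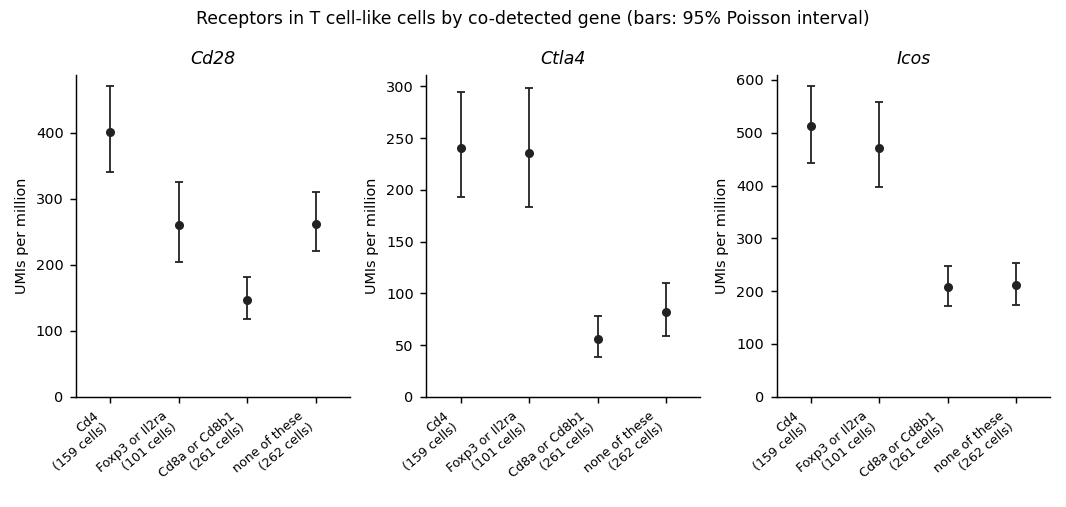
Level in CPM of Cd28, Ctla4 and Icos (one panel each, linear axis from 0) in T cell-like cells grouped by the lineage genes with a UMI in the cell; points sum all tumor samples and bars are 95% Poisson intervals. The Cd8a or Cd8b1 group is the lowest for Cd28 (147), Ctla4 (55.7) and, beside the cells with none of these genes, Icos (208).

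Of the T cell-like cells, 71 held both Cd28 and Icos, where the product of the 2 shares gives 54.8, 57 held Icos and Ctla4 against 35.4, and 41 held Cd28 and Ctla4 against 29.5. These counts were not adjusted for the depth of each cell. Cd86 and Icosl met in 63 microglia-like cells against a product of 54.9, and Cd80 and Cd86 in 4 dendritic cell-like cells against 4.65.

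Over the stages, Icos in T cell-like cells was 2.05 times as high in the late as in the early sample (95% counting interval 1.63 to 2.58) and Ctla4 2.58 times (1.67 to 4.01), while Cd28 was at 1.22 times (0.913 to 1.62). The ratio differed in size between runs. In run 3 it was 2.76 for Icos (2.07 to 3.69) and 4.44 for Ctla4 (2.49 to 8.18). In run 2 it was 1.26 (0.826 to 1.90) and 1.09 (0.472 to 2.39), and run 1 had only 4 early and 2 late T cell-like cells. Of the late UMIs, 104 of 152 for Icos and 37 of 49 for Ctla4 lay in a single cluster of 44 cells, 39 of them late, singled out after its values were seen. It was led by Il13, Areg, Ccl1, Il4 and Gata3, which include cytokine and transcription factor genes of type 2 immunity, and all 9 T cell markers passed in it. Late cells of this cluster held Icos at 1038 CPM (848 to 1257), Ctla4 at 369 CPM (260 to 509) and Cd28 at 359 CPM (252 to 497). Il2ra, which encodes the high-affinity IL-2 receptor chain, was at 529 CPM there and Foxp3, the factor of regulatory T cells, had 2 UMIs. Without the cluster the late over early ratios were 1.13 for Icos (0.803 to 1.58), 1.09 for Ctla4 (0.523 to 2.12) and 1.16 for Cd28 (0.801 to 1.64). The members took no part in the clustering, and of the 39 late cells 25 came from run 3, 13 from run 2 and 1 from run 1.

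Cd40 and Cd40lg form the reverse signal, from T cell to antigen-presenting cell. Cd40lg had 17 UMIs in all, 16 of them in T cell-like cells and 1 in fibroblast-like cells. T cell-like cells were at 11.9, 5.85 and 21.4 CPM over the stages from 6, 5 and 5 UMIs, at least 30.2-fold above glioma cells, which had none. Cells with Cd4 held 6 of these UMIs (15.8 CPM, 95% Poisson interval 5.81 to 34.5) and cells with Cd8a or Cd8b1 held 1 (1.69 CPM, 0.0428 to 9.41). A UMI was found in 1.67% of T cell-like cells, so absence from the other classes could not be shown at this depth.

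Cd40, the receptor on the antigen-presenting side, was lower in microglia-like than in dendritic cell-like and border macrophage-like cells. Microglia-like cells held 0.731, 1.42 and 2.93 CPM from 14 UMIs in all 5751 cells. Dendritic cell-like cells were at 29.6, 56.2 and 24.5 CPM, macrophage or monocyte-like cells at 21.3, 38.7 and 10.3 CPM and border macrophage-like cells at 22.6, 14 and 11 CPM. The Cxcl9-led cluster was at 19.8 and 28 CPM. Every value of these groups lay above every microglia-like value, and the share of all genes that do so is not given here. In the class fit, Cd40 was higher in dendritic cell-like than in microglia-like cells by 4.37 on the log2 scale (SE 0.79, adjusted p = 2.98e-05), with 19% of genes called in either direction. It was higher in the Cxcl9-led cluster than in microglia-like cells by 3.97 (SE 0.82, adjusted p = 0.00104), with 4.36% called. It was lower in microglia-like than in border macrophage-like cells, at -3.25 (SE 0.82, adjusted p = 0.00505), with 9.31% called. The first of these was lost where each cell took its class from its own markers (log2 2.88) and the last without the early tumor sample (log2 -2.24). Endothelial cell-like cells of the CD45- sort were at 29.7, 4.67 and 37.6 CPM, next below dendritic cell-like cells in the order of means (24 against 36.8 CPM). None of the 4 neighbouring pairs at its top passed the test. The B cell-like cells of the medium sample were at 32.3 CPM from 8 UMIs.

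Levels were also set side by side between the clusters of a class, summed over tumor samples. No test over tumor samples was made of these clusters, and the share of all genes whose intervals separate between them is not given here. The 6 microglia-like clusters held Cd86 at 86.7 to 122 CPM and Cd40 at 0 to 1.57 CPM. Among macrophage or monocyte-like cells, the 143 cells led by Ly6i, Cfb and Cxcl9 held Cd40 at 82.7 CPM (95% Poisson interval 53.5 to 122), whereas the 766 cells led by Rnase2a, Arg1 and Spp1, of which 600 were late, held 8.52 CPM (5.20 to 13.2). Their Cd86 levels were 92.7 CPM (61.6 to 134) and 66.4 CPM (56.4 to 77.7), with overlapping intervals. Among dendritic cell-like cells, the 32 cells led by Ccr7, Il12b and Ccl22, genes of dendritic cells that have matured and migrate, held Cd40 at 152 CPM (75.7 to 271) from 11 UMIs. The 101 cells led by Ccl17 and Cd209a were at 52.5 CPM (29.4 to 86.6) and the 151 cells led by Xcr1, Itgae and Clec9a, genes of cross-presenting dendritic cells, at 16.0 CPM (5.85 to 34.7). Cd86 was at 152, 109 and 117 CPM and Cd80 at 41.4, 42.0 and 47.9 CPM in the same 3 clusters, with overlapping intervals. Icosl was at 55.1, 14 and 7.98 CPM from 4, 4 and 3 UMIs. The Cd40 level of late over early macrophage or monocyte-like cells was 0.481 (0.186 to 1.46), in a class whose late cells lay mostly in the cluster led by Rnase2a.

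**Figure D5:**
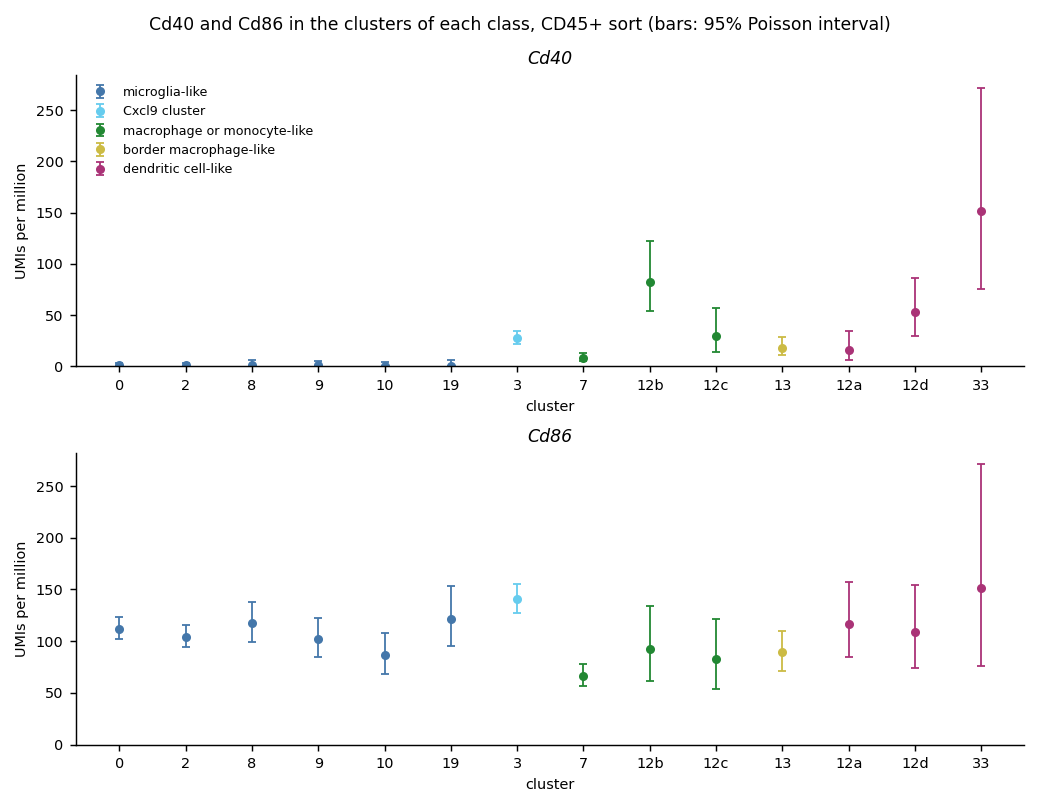
Level in CPM of Cd40 (top) and Cd86 (bottom) in each cluster of the microglia-like, macrophage or monocyte-like, border macrophage-like and dendritic cell-like classes and in the Cxcl9 cluster, CD45+ sort; points sum all tumor samples and bars are 95% Poisson intervals. Cd40 runs from at most 1.57 in microglia-like clusters to 152 in dendritic cell-like cluster 33, while Cd86 is at 66.4 to 152 in every cluster shown.

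Free RNA in droplets also gives single cells UMIs of genes they do not express. A Cd86 UMI was found in 15.3% of microglia-like, 19.4% of dendritic cell-like, 20.7% of Cxcl9-led and 5.72% of T cell-like cells. The median depths were 1894 UMIs in microglia-like, 2349 in dendritic cell-like, 1929 in Cxcl9-led and 1899 in T cell-like cells. After thinning to 1000 UMIs the shares were 9.30%, 7.12%, 11.3% and 3.18%. Cd28, Ctla4 and Icos were found in 25.2%, 16.3% and 30.3% of T cell-like cells and, after thinning, in 18.6%, 7.23% and 18.9%. In microglia-like cells of the same sort the shares were 0.0869%, 0.0522% and 0.539%, and 0.0178%, 0.0178% and 0.268% after thinning. A Cd40 UMI was found in 7.39% of dendritic cell-like and 0.226% of microglia-like cells, and after thinning in 2.85% and 0.107%. It was found in 0.697% of T cell-like cells, and in 0.434% after thinning. The part of free RNA in these shares was not tested.

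Other genes of the same pathways were taken from 4 lists, whose medians are given beside that of all genes tested. Of 7 other B7 and CD28 family genes 5 were tested in the sort comparison. In CD45+ 4 were higher and none lower (median log2 3.53 against -0.04), led by the inhibitory receptor gene Pdcd1 (6.32, SE 0.64, adjusted p = 0.000349) and Vsir, which encodes the checkpoint protein VISTA (4.70, SE 0.57, adjusted p = 0.000804). Between antigen-presenting and T cell-like cells 1 of 5 was higher and 2 lower (median 0.32 against 0.03), with 1 called without the late tumor sample and 1 under DESeq2. These were Vsir at 1.05 (SE 0.32, adjusted p = 0.0148), Pdcd1 at -4.38 (SE 0.51, adjusted p = 1.25e-08) and Btla, another inhibitory receptor gene, at -2.45 (SE 0.71, adjusted p = 0.00935). Against glioma cells 3 were higher in the antigen-presenting classes and 4 in T cell-like cells, with none lower (medians 3.45 and 4.08 against -0.23 and -0.20).

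Of the 20 genes of CD28, ICOS and T cell receptor signalling, 14 were higher and 3 lower in CD45+ (median 1.51), with the adaptor gene Lat at 7.57 and the kinase genes Prkcq at -1.90 and Fyn at -1.53. None of the 18 tested was higher and 11 were lower in the antigen-presenting classes than in T cell-like cells (median -1.11), among them the kinase gene Zap70 (-6.77, SE 0.64, adjusted p = 2.37e-11). Without the early tumor sample 7 of 17 were lower and none higher. Over glioma cells 9 were higher and 2 lower in the antigen-presenting classes (median 1.48), Vav1 at 9.07 and Pik3cd at 6.09 against Fyn at -3.63 and Prkcq at -3.58. In T cell-like cells 12 were higher and 1 lower (median 2.30), Lat at 10.65 and Lck at 10.40 against Fyn at -1.75. Of the 12 CD40 signalling genes, 7 were higher and 1 lower in CD45+ (median 1.43), with Birc3 at 3.27, Traf1 at 3.18 and Traf6 at -0.75. In the antigen-presenting classes 1 was lower than in T cell-like cells and none higher (median -0.29), Traf1 at -2.26 (SE 0.38, adjusted p = 9.23e-06), and without the medium tumor sample 1 was lower and 1 higher. Both sides had 7 of 12 higher than glioma cells and none lower (medians 1.46 and 1.53), with Birc3 at 4.99 and Traf1 at 4.22 in the antigen-presenting classes and at 4.28 and 6.48 in T cell-like cells. In the antigen-presenting classes the 7 fell to 4 of 6 tested without run 2 and 3 of 8 without run 3. In T cell-like cells it was 4 of 12 without the late tumor sample, 3 of 6 without run 2 and 3 of 8 without run 3.

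Of 4 genes listed under the trafficking of CTLA-4 and CD86, 3 were higher in CD45+ and none lower (median 2.60), with Cd74, the invariant chain, at 5.58 and Def6 at 3.18. The trafficking of either protein was not measured in these data. The antigen-presenting classes had 2 higher and 1 lower than T cell-like cells (median 0.80). These were Cd74 at 2.59 (SE 0.74, adjusted p = 0.0126), March1, the ubiquitin ligase that removes CD86 from the surface, at 2.17 (SE 0.56, adjusted p = 0.00332), and Def6 at -2.07 (SE 0.44, adjusted p = 0.000405). Over glioma cells 3 were higher in the antigen-presenting classes, Cd74 at 8.49 and Def6 at 4.22 among them, and 2 in T cell-like cells, Def6 at 6.28 and Cd74 at 5.89 (medians 3.70 and 3.45). Without the late tumor sample or without run 2, 1 of these genes was called between antigen-presenting and T cell-like cells. Over glioma cells it was 1 in the antigen-presenting classes without run 2 and 1 in T cell-like cells without run 1. No list had a lower median than all genes except in the comparison of antigen-presenting with T cell-like cells, where the T cell receptor and CD40 signalling lists did.

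The genes whose class levels were most like those of each member, by Pearson's r of log2(CPM + 1) over the 17 classes among 16417 genes, are given as a description, since all classes come from the same tumor samples. Cd86 was closest to Ctss (0.979), Mpeg1 (0.978) and Bcl2a1b (0.977), genes of phagocytes. Cd28 was closest to Nkg7 (0.986), Ptprcap (0.978) and Cxcr6 (0.978), Icos to Cd28 (0.966), Trbc2 (0.963) and Gimap3 (0.957), and Ctla4 to Cd3g (0.962), Tnfrsf4 (0.954) and Cd28 (0.954). The highest r was lower for the other members. Cd80 was closest to Tnni2 (0.881), Herpud1 (0.872) and Tnfrsf23 (0.847), and Icosl to Creg1 (0.874), Lrrc3 (0.865) and Nfkbiz (0.858). Cd276 was closest to Gldn (0.866), Adamts7 (0.864) and Ythdf2 (0.862), and for Cd40 Trafd1 (0.801) and Stat2 (0.799) were among the 3 closest.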

How the data were processed

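The authors deposited raw counts of UMIs for each gene in each cell, and a library annotation giving each library's stage, sort and run, and no fold changes or p-values were used. Per the study's methods and the labels, reads were assigned to GRCm38 transcripts with the transgenes added (mm10 in the submitters' notes), and the authors corrected cells for free RNA and dropped doublets called by scDblFinder. Whether the deposited counts precede those steps was not given in the sources used here. Cells with at least 500 UMIs, at least 500 genes and at most 20% mitochondrial UMIs were kept (17894 of 20811), and 113 of 17786 scored cells (0.635%) called as doublets by a simulation-based score were removed.

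Cells were clustered with scanpy 1.11.5 and leidenalg 0.10.2 (2000 variable genes, 40 components, 20 neighbours, resolution 1), leaving out the 9 genes and their pathway lists. A cluster was named when at least 3 markers of 1 of 21 lists passed (2-fold, 10% of cells) and no other list had more genes among its top 10. A named cluster could hold none of its own markers there, as did microglia-like clusters led by Tnf, H2-Oa and Hspa1b and a T cell-like cluster led by Il13. Of 59 clusters 6 stayed unnamed. Leukocyte classes were taken from CD45+ and others from CD45- cells, in profiles of at least 20 cells, with 43972 to 8203271 UMIs each.

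Summed counts were tested with edgeR 4.0.16 (quasi-likelihood, TMM factors, two-sided, Benjamini-Hochberg adjusted p under 0.05 over all genes tested) in R 4.3.3, with the tumor sample as a block, since both sorts and all classes of a stage come from the same tumor sample. Deviations of profiles of 1 tumor sample correlated at 0.379, 0.274 and 0.294 between sorts and at a median of 0.0665, 0.0252 and 0.0544 between classes. The contrast of antigen-presenting classes was to include B cell-like cells, but these had a profile in only 1 tumor sample, so 4 classes entered. A fold against a group without UMIs was computed against a floor of 3 counts over that group. Poisson and binomial (Clopper-Pearson) intervals are 95% and cover counting error only. Tested on simulated data, the fit recovered 97.0% of genes changed by 2 on the log2 scale between sorts (18667 genes) and 77.6% between antigen-presenting and T cell-like cells (10010 genes), and 34.3% and 31.3% of those changed by 1. For T cell-like over glioma cells (9678 genes) it recovered 67.2% and 19.4%, and for antigen-presenting over glioma cells (10010 genes) 82.1% and 25.4%. Of genes changed by 3, it recovered 89.4% between sorts and 80.3% between antigen-presenting and T cell-like cells. The simulated spread was below the fitted dispersion of 0.0678 between sorts and 0.0815 between classes, and only genes of higher counts were changed. These shares therefore do not carry over to members with few UMIs.

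The text names all 9 genes, neighbouring classes in their order of levels, the list genes with the largest changes in each direction among those called (up to 2), and the 3 genes most like each member among those with at least 100 UMIs. Some genes that this rule names are not reported here. The members and lists were chosen with earlier results of these data known. Alternatives were other scalings, DESeq2 1.42.0, filters, the block, left-out tumor samples and runs, doublet handling and class rules. Leaving out shared barcodes, the unnamed cluster or the cluster led by Il13 was added after seeing the data.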

Additional observations from a re-analysis of the deposited data

How the results depend on the processing

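Of the 24 member calls in the 4 comparisons, 18 kept their direction and their side of the threshold wherever tested, and 6 were lost under at least 1 alternative. Of 1392 values computed under 23 settings, 1250 held, 86 lost and 8 gained a call, 7 changed sign and 41 moved otherwise. Among those that changed sign, only Cd28 in microglia-like over border macrophage-like cells had been called (log2 -3.58), and it ran from -4.20 to 2.58 on leaving out a tumor sample or run, highest without the early tumor sample. Cd276 in antigen-presenting over T cell-like cells, at -0.08, ran from -2.05 to 4.63 on leaving out a tumor sample or run, highest without the early tumor sample. It was at 0.026 with doublets kept, 1.13 where each cell took its class from its own markers, 4.53 without cells holding markers of another class and 0.36 at resolution 2. It rested on 4 T cell-like UMIs, all early. Cd40 in T cell-like over glioma cells was at -0.030 without cells holding markers of another class. Under DESeq2 2 members were called in antigen-presenting over T cell-like cells in place of 4, while 2678 genes were called in place of 2446. Leaving out a tumor sample or a run gave 1391 to 2382 genes called there in place of 2446, fewest without the early tumor sample, and 4 to 7 members called in antigen-presenting over glioma cells in place of 7, with 4 without the early tumor sample or run 2, where 6 and 5 members were tested in place of 8. The cause of the other changes was not tested.

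Without the replicate block, 7, 4, 7 and 7 members were called in the 4 comparisons in place of 7, 4, 7 and 6, and 7868, 2267, 5620 and 4442 genes in place of 8503, 2446, 5902 and 4657. The added call was Cd80 in T cell-like over glioma cells (log2 2.30, adjusted p = 0.044), also gained at resolution 2 (adjusted p = 0.0237) and where each cell took its class from its own markers (adjusted p = 0.00695), and in macrophage or monocyte-like over T cell-like cells the calls of Cd86 (log2 1.25) and Cd40 (log2 2.26) were lost.

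Depth limits what can be said of Cd40lg (17 UMIs), of Cd80 and Cd40 outside myeloid classes, and of early glioma cells, of which there were 37.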

Other observations

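Some classes had a profile in only 1 tumor sample, the medium one, and entered no test. B cell-like cells (86 cells) held Cd80 at 48.5 CPM (95% Poisson interval 25.1 to 84.8), Cd40 at 32.3 CPM (14 to 63.7) and Cd86 at 28.3 CPM. Plasma cell-like cells (132 cells) held Cd28 at 47.2 CPM, Ctla4 at 27.9 CPM and Icos at 23.6 CPM, in a profile whose 9 T cell markers summed to 373 CPM, and the part of T cell RNA in those values was not tested. Plasmacytoid dendritic cell-like cells (44 cells) held Cd28 and Icos at 22.3 CPM each, from 2 UMIs each, and no UMI of the other members. Their 9 T cell markers summed to 167 CPM, with Cd3d, Cd3g, Trbc1, Cd2 and Bcl11b at 0, and the part of T cell RNA was again not tested.

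Dendritic cell-like cells could also be divided by genes rather than clusters. The 73 cells with at least 2 UMIs over Ccr7, Fscn1, Ccl22, Cacnb3, Il4i1, Socs2 and Nudt17 held Cd40 at 70.7 CPM (95% Poisson interval 37.6 to 121) and the 175 cells with at least 2 UMIs over Xcr1, Clec9a, Cadm1, Wdfy4 and Naaa at 22.7 CPM (11.3 to 40.7), with 28 cells in both, which held 12.3 CPM (0.313 to 68.8). The 64 cells in neither were at 61.0 CPM (27.9 to 116), an interval that overlaps both. Cd86 was at 131 and 136 CPM in the first pair of ranges and at 61.0 CPM in the cells in neither. These are ranges cut from per-cell UMI sums, with 16 cells at the cut of the first and 26 at that of the second, and 28 and 29 cells lay 1 UMI below.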
